A study of Mus musculus with 9 samples.

Results

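Histone methylation is written by SET-domain enzymes and DOT1L, removed by the LSD1 and JmjC demethylases, and read by proteins that compact or open chromatin. The genes described here are 41 such writers, erasers, Polycomb subunits and HP1 readers, given as a list of symbols. All 41 had a row among the 24503 gene rows of the deposited count table, and 40 of them passed the filter on low counts and were tested. The exception was the demethylase gene Kdm4d, with 2, 3 and 6 counts in the control libraries, 7, 12 and 10 with the weaker Rad21 hairpin and 4, 0 and 4 with the stronger one.

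Messenger RNA was sequenced from primary neural stem cells of mouse embryonic cortex (E13.5), grown on laminin with FGF and EGF. All cells were Phf2flox/flox and otherwise wild type, so the controls carry the floxed Phf2 allele too, and the labels name no Cre. Cells were transduced with virus for a non-targeting hairpin (shNT) or for 1 of 2 hairpins that target Rad21, a core subunit of cohesin (shRad21_1 and shRad21_2), with 3 libraries in each of the 3 groups. The labels do not say whether the 3 libraries of a group are separate cultures, so p-values measure the spread between these libraries, which may be technical.

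Total counts ran from 34780003 to 46644607 per library. Levels are CPM, counts scaled to a common library size with TMM factors. Rad21 stood at 531, 450 and 456 CPM in shNT, 187, 174 and 178 with shRad21_1, and 82.0, 91.2 and 82.5 with shRad21_2, so that every knockdown library lay under every control and shRad21_2 was the lower. Replicates 2 and 3 were closer to each other than to replicate 1 in shNT (chi-square per gene 3.18, against 23.0 and 24.2) and in shRad21_1 (2.18, against 69.1 and 69.6). In shRad21_2 no pair was as close: replicates 2 and 3 were at 47.2, against 56.6 and 50. Replicate 1 of shRad21_1 stood apart from its group in astrocyte markers, whose summed level was 1220 CPM in it, 1810 and 1830 in replicates 2 and 3, 1860 to 1910 in shNT and 809 to 863 with shRad21_2. All 12 neural stem cell markers were tested, and their summed level was 8880 to 9150 CPM in shNT, 7240 to 8590 with shRad21_1 and 7280 to 8200 with shRad21_2. The sum hides opposite moves: under shRad21_2, 4 of these markers rose and 4 fell, with Nes at a mean of 1220 CPM in shNT and 2490 with shRad21_2, and Ptprz1 at 1220 and 318. Of the tested markers of other lineages, 8 of 10 astrocyte, 6 of 8 oligodendrocyte lineage and 6 of 10 neuron genes fell under shRad21_2, where 22.5% of all genes fell. There 1 oligodendrocyte lineage gene and 1 neuron gene rose. The summed level of the oligodendrocyte lineage markers was 2760 to 2890 CPM in shNT and 2690 to 3090 with shRad21_2. For the neuron markers it was 1210 to 1340 and 1070 to 1180. Under shRad21_1, where 5.63% of all genes fell and 4.19% rose, 3 of the 10 neuron genes fell and 1, Syt1, rose. Of the 8 tested oligodendrocyte lineage genes, 1 was called lower with that hairpin. For the 12 stem cell genes, the calls with it were 2 higher and 1 lower. The microglial markers Aif1 and Cx3cr1 and the mesenchymal marker Dcn had 0 counts in all 9 libraries. Other markers of such lineages were detected, with totals over the 9 libraries of 501 for microglial P2ry12, 141 for mesenchymal Col1a1, and 767 and 230 for endothelial Kdr and Tek. Under shRad21_2, 1 of 1 tested microglial, 2 of 3 endothelial and 1 of 2 mesenchymal genes fell. In such bulk RNA, fewer cells of a type and less RNA per cell cannot be told apart.

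The 3 genes of the PHF2 family encode JmjC proteins whose PHD finger binds methylated H3K4 and whose catalytic domain acts on methylated H3K9 and related marks. Polycomb repressive complex 2 (PRC2), built on EZH1 or EZH2 with EED and SUZ12, methylates H3K27, and PRC1, built on RING1 or RNF2, ubiquitinates H2A and reads H3K27 methylation through its CBX subunits. In neural progenitors EZH2 and BMI1 are known for holding developmental genes and the Cdkn2a locus silent while cells divide. HP1 proteins bind methylated H3K9 in heterochromatin.

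Promoters are shown for 4 members whose window before the start holds no annotated exon: Phf8, which differed most under shRad21_1, Bmi1 and Jarid2, which rose under shRad21_2, and Suz12, a PRC2 subunit gene that was not called and is set beside them for its motif match. The RefSeq promoter table (GRCm38.p6, the same build as mm10) matched 34 of the 41 members, with 45 start sites. Each sequence is the 250 bases before a start, 5′ to 3′ on the gene's strand, with every CG dinucleotide in capitals, since KDM2B, a member described below, is known to bring PRC1 to CG-rich promoters.

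Phf8, chrX:151520422-151520671, plus strand: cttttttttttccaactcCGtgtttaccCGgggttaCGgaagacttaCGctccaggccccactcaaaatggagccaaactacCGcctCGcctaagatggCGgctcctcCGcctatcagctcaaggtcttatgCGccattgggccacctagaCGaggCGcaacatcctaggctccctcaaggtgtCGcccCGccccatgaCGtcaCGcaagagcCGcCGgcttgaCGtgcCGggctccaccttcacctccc
Bmi1, chr2:18676768-18677017, plus strand: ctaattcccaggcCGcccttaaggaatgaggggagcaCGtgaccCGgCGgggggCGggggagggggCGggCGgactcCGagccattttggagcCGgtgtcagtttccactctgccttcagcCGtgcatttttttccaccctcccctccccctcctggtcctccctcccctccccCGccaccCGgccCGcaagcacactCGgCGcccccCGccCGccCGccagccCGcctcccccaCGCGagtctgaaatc
Jarid2 (1 of its 2 start sites), chr13:44731021-44731270, plus strand: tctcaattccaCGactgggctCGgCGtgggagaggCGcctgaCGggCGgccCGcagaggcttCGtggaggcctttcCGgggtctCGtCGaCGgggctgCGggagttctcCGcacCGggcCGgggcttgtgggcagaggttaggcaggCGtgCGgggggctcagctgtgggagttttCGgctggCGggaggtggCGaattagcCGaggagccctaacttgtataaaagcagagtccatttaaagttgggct
Suz12, chr11:79992856-79993105, plus strand: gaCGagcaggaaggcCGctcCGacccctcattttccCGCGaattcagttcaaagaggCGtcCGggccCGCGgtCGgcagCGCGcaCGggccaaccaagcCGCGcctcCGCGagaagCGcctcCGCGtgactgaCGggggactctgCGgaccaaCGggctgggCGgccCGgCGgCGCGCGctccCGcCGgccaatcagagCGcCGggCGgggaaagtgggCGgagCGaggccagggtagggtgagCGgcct

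The windows held 19 CG in Phf8, 21 in Bmi1, 22 in Jarid2 and 37 in Suz12. The median was 22 CG over the 45 member windows, from 0 to 56, and 6 over all 32851 windows of the table. At least 1 CG was found in 43 of the 45 member windows and in 92.1% of all windows. The E2F letters TTTCCCGC, TTTCGCGC, TTTGCCGC and TTTGGCGC, searched on both strands, matched 3 member windows, those of Suz12, Cbx3 and Suv39h1, and 1.86% of all windows. The match in Suz12 was TTTCCCGC on the plus strand, from 219 to 212 bases before the start, where its letters run into the CG shown in capitals. The core of the CTCF motif, searched with any base at its less fixed positions, matched 0 of the 45 member windows on either strand and 2.07% of all windows, which says only that these letters are not in these windows.

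Levels between genes were compared per kilobase of annotated exon (CPM per kb, on the union of GENCODE vM21 exons). In shNT the HP1 genes Cbx3 (67.0 to 72.3 CPM per kb) and Cbx5 (61.7 to 68.0) were the highest, with overlapping ranges. Bmi1 (45.0 to 48.4) and the H3K9 methyltransferase gene Ehmt2 (43.7 to 46.6) came next and also overlapped. The demethylase genes Kdm1a (29.0 to 33.3), Kdm5c (30.0 to 31.6) and Kdm4a (26.0 to 30.3) overlapped with each other. Suz12 (27.3 to 28.7) and Phf2 (25.8 to 27.6), in eighth and ninth place by mean, overlapped with Kdm4a and with each other. Ezh2 followed at 21.2 to 25.9, whereas Phf8 stood at 4.20 and Kdm7a at 3.34. The lowest of the tested members were Setdb2 (2.32), Ezh1 (1.35) and Cbx7 (0.754).

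**Figure D1:**
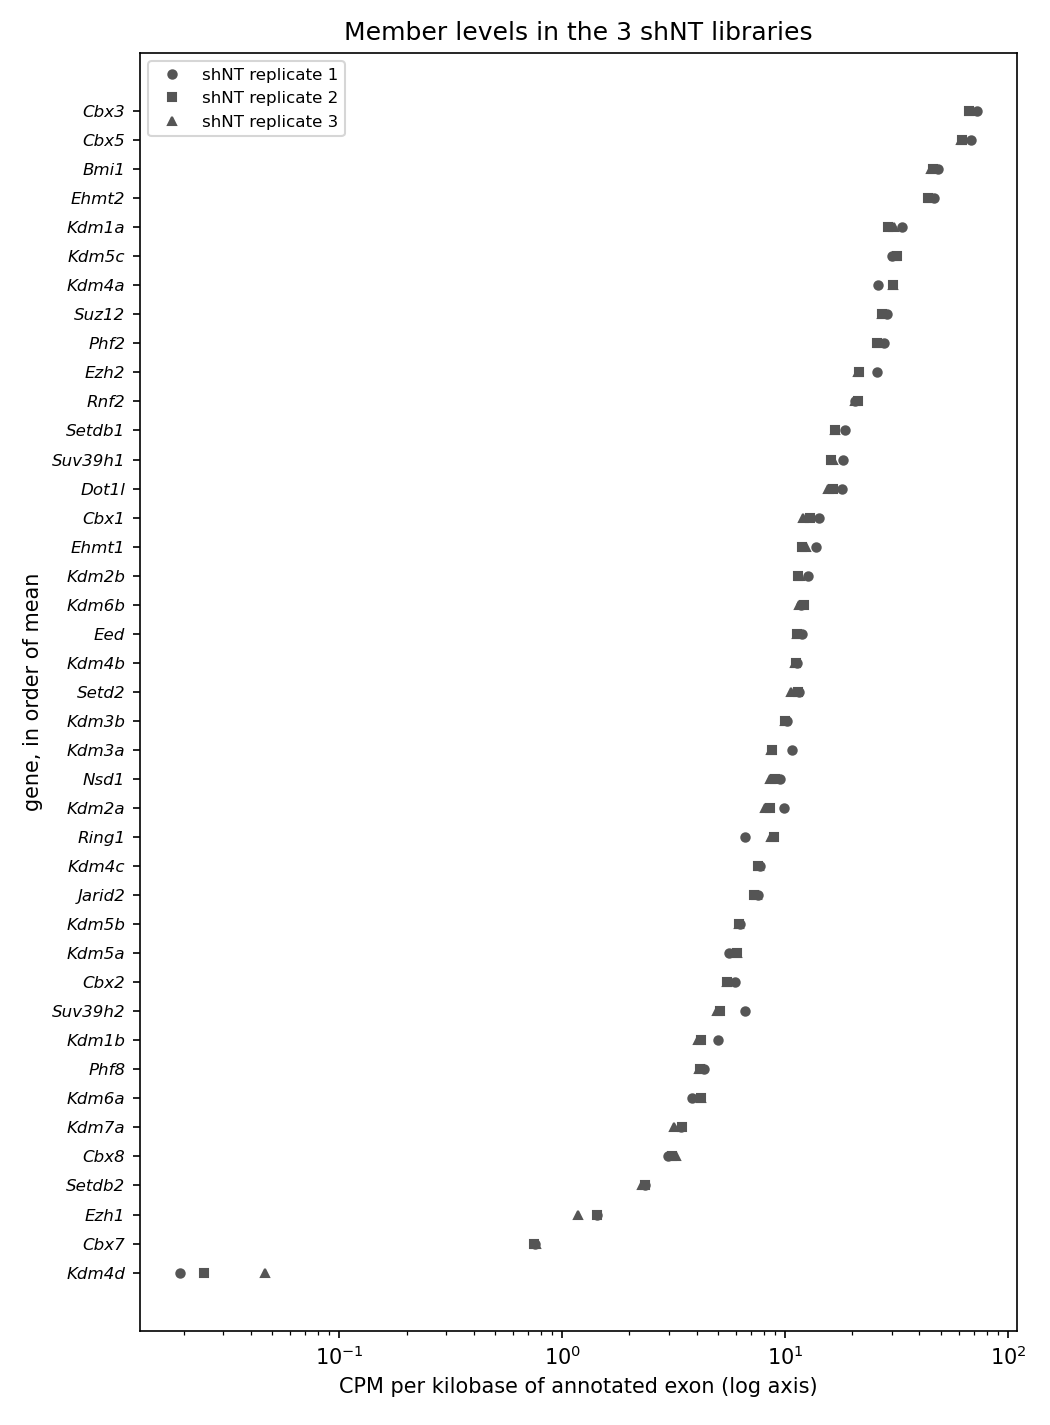
Level of each of the 41 members in the 3 shNT libraries, in CPM per kilobase of annotated exon on a log axis, ordered by mean. Cbx3 and Cbx5 lead at 69.0 and 63.9, and Kdm4d is last at 0.0302.

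Under shRad21_1, 3 members rose and 1 fell of the 40 tested (10% called), against 9.82% of all 13560 genes tested (4.19% upward and 5.63% downward). The share of members called is thus near the background. The members that rose were Phf2, Kdm6b and Cbx2, and the one that fell was Phf8. The members' median log2 fold change was 0.11, against 0.01 over all genes, and 28 of 40 members had a value above 0, against 50.9% of all genes.

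Under shRad21_2, 13 members rose and 1 fell (35% called), against 43.6% of all genes tested (21.1% upward and 22.5% downward). The share called was under the background, while the direction was mostly upward: 32.5% of members rose and 2.5% fell. The median log2 fold change was 0.21, against 0.01 over all genes, and 31 of 40 members had a value above 0, against 51.1% of all genes. With library totals in place of TMM those medians were 0.14 and -0.06. The comparison shares its shNT libraries with that of shRad21_1. The groups did not overlap in CPM for 20 of 40 members under shRad21_1 and 17 of 40 under shRad21_2, where this held for 40.2% and 55.9% of all genes.

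**Figure D2:**
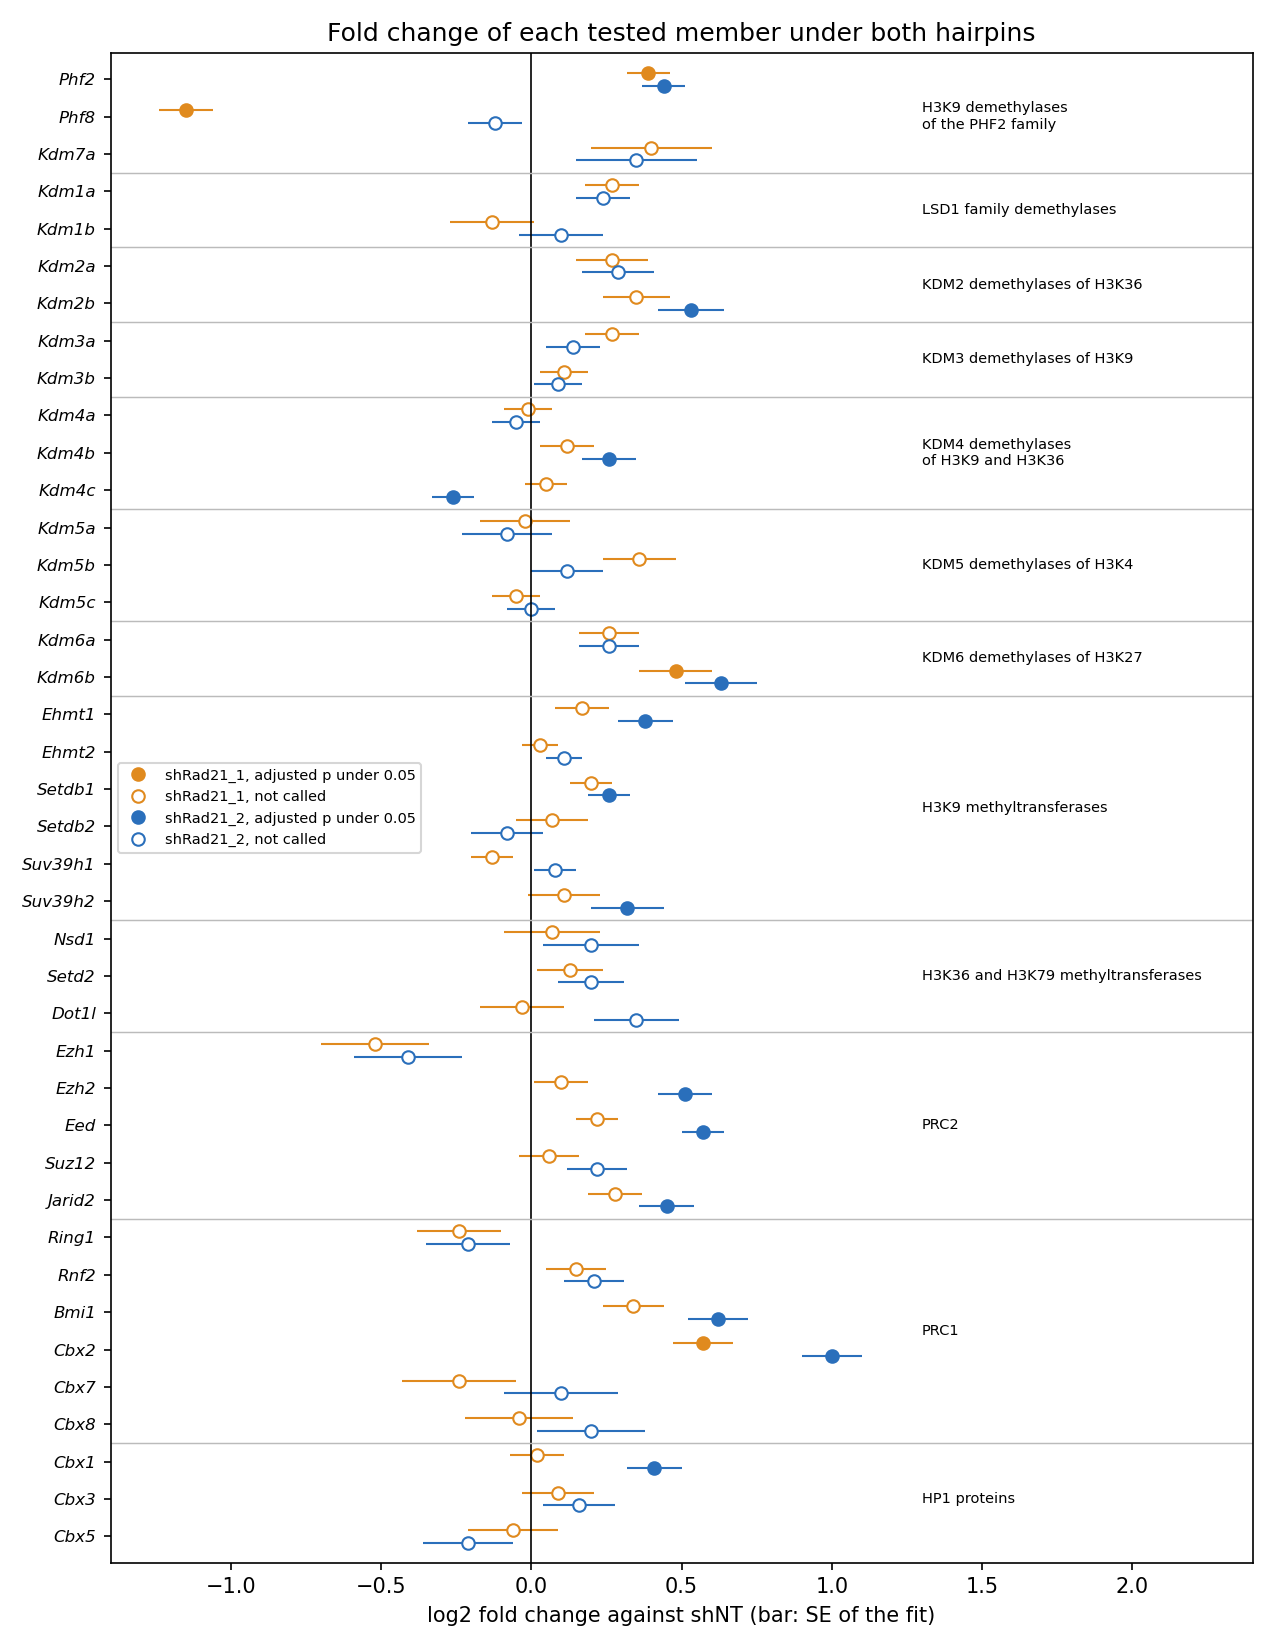
Log2 fold change against shNT of the 40 tested members, grouped by role, with the SE of the fit as a bar. Filled points passed an adjusted p of 0.05. Phf8 at -1.15 under shRad21_1 and Cbx2 at 1.00 under shRad21_2 lie farthest from 0.

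Between the hairpins, 6 members were higher with shRad21_2 than with shRad21_1 and 1 was lower (17.5% called), against 26.3% of all genes (11.9% upward and 14.4% downward). These were Phf8, Suv39h1, Ezh2, Eed, Cbx2 and Cbx1, and in the other direction Kdm4c. The 2 groups did not overlap for 11 of the 40 members, against 39.2% of all genes. With the close libraries summed (shNT replicates 2 and 3, and shRad21_1 replicates 2 and 3), an alternative chosen after seeing the data, only Phf8 kept a call between the hairpins.

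Phf8 was lower with shRad21_1 and was not called with shRad21_2. The gene, ENSMUSG00000041229.15, lies on the X chromosome from 151520672 to 151633859 of mm10 and encodes a demethylase of H3K9 and H4K20 methylation. Its level was 40.4, 38.8 and 38.3 CPM in shNT (39.2 ± 1.11, SD, n = 3), 16.7, 16.7 and 19.5 with shRad21_1 (17.6 ± 1.59, n = 3), and 37.7, 37.2 and 33.2 with shRad21_2 (36 ± 2.48, n = 3). All 3 shRad21_1 libraries lay under the other 6, including the replicate that stood apart in astrocyte markers. In edgeR, Phf8 fell under shRad21_1 by 1.15 in log2 (edgeR adjusted p = 3.46e-04, SE 0.09), and its value under shRad21_2 was -0.12 (adjusted p = 0.321, SE 0.09). Between the hairpins the log2 difference was 1.03 (adjusted p = 1.05e-04, SE 0.09), with shRad21_2 the higher. Both calls were made under all 19 alternatives, with values from -1.23 to -1.11 against shNT and from 0.97 to 1.11 between the hairpins. Phf8 is thus lowest in the group with the intermediate Rad21 level, not in the group with the least Rad21. The hairpin sequences were not used here, and whether shRad21_1 matches Phf8 was not tested.

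Phf2, the floxed gene, was higher with both hairpins. ENSMUSG00000038025.8 lies on chromosome 13 from 48801750 to 48871119, on the minus strand, and encodes an H3K9 demethylase. It stood at 152, 142 and 144 CPM in shNT, 195, 185 and 192 with shRad21_1 and 203, 207 and 182 with shRad21_2. The lowest knockdown library was above the highest control, and the hairpin groups overlapped. The log2 fold changes were 0.39 (edgeR adjusted p = 0.00971, SE 0.07) and 0.44 (adjusted p = 0.00101, SE 0.07), and 0.05 between the hairpins (adjusted p = 0.637, SE 0.07). Without shNT replicate 2 or 3 the call under shRad21_1 was lost, and with close libraries summed its adjusted p was 0.148. Counts per gene do not show which exons of Phf2 the reads came from.

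Kdm7a, the third member of the family, was not called. It ran at 34.3, 34.6 and 31.8 CPM in shNT, 56.7, 39.1 and 37.3 with shRad21_1 and 38.0, 56.0 and 34.2 with shRad21_2. A single library of each hairpin group was well above the rest (log2 fold changes 0.40 and 0.35, edgeR adjusted p = 0.234 and 0.183, SE 0.20 each). Per length, Phf8 stood at 0.157, 0.161 and 0.156 of Phf2 in shNT, at 0.0507, 0.0531 and 0.0598 with shRad21_1 and at 0.109, 0.106 and 0.107 with shRad21_2. The 3 groups did not overlap in this ratio. It was chosen after the values were seen and carries no test.

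**Figure D3:**
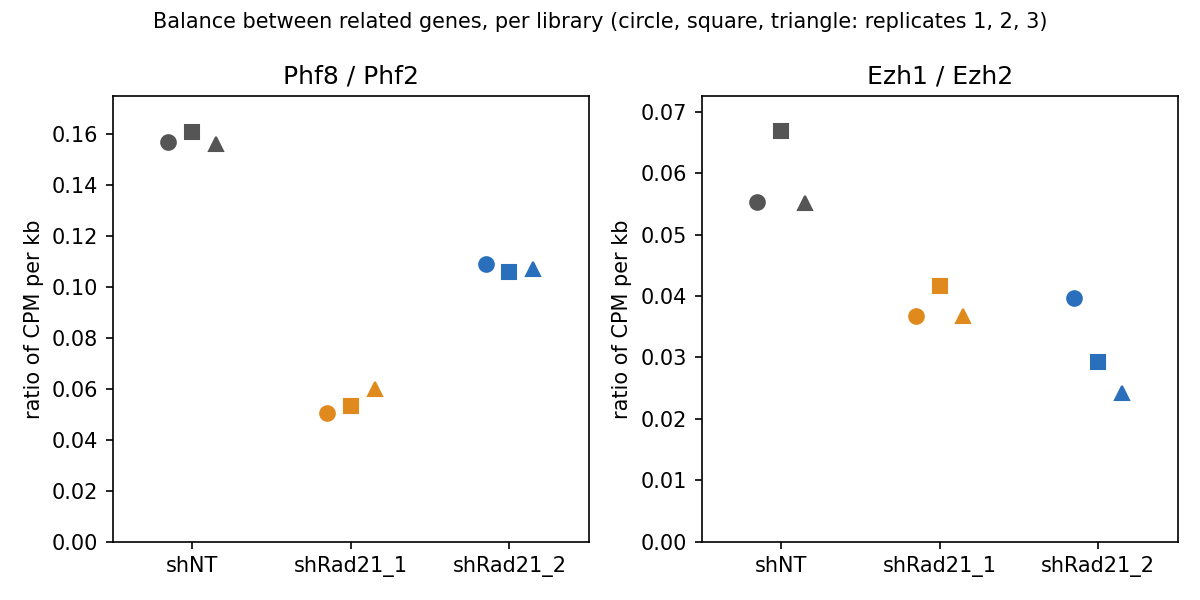
Ratio of Phf8 to Phf2 and of Ezh1 to Ezh2 (CPM per kb) in each library, from 0. Phf8 stands at 0.156 to 0.161 of Phf2 in shNT, 0.0507 to 0.0598 with shRad21_1 and 0.106 to 0.109 with shRad21_2.

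Among the other erasers, Kdm6b and Kdm2b had the largest log2 fold changes under shRad21_2. Kdm6b (JMJD3), which removes H3K27 methylation and so acts against PRC2, stood at 82.1, 84.0 and 79.9 CPM in shNT. It reached 109, 113 and 121 with shRad21_1 and 143, 137 and 99.9 with shRad21_2, above every control. It rose by 0.48 under shRad21_1 (edgeR adjusted p = 0.0329, SE 0.12) and by 0.63 under shRad21_2 (adjusted p = 0.00243, SE 0.12). The first of these calls was lost on leaving out shNT replicate 1, 2 or 3, without shRad21_1 replicate 2 or 3, and with close libraries summed, with values from 0.44 to 0.52 over 19 alternatives and an adjusted p of up to 0.225. Its paralogue Kdm6a (UTX) was at 0.26 in both comparisons (adjusted p = 0.141 and 0.0649).

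Kdm2b, which removes H3K36 methylation and carries a CG-binding zinc finger, was at 137, 124 and 126 CPM in shNT and at 195, 185 and 180 with shRad21_2. It rose by 0.53 there (edgeR adjusted p = 0.00420, SE 0.11). With shRad21_1 it was at 198, 148 and 146, and replicate 1 alone reached the shRad21_2 range (0.35, adjusted p = 0.0844, SE 0.11). Without that replicate the difference between the hairpins was called (0.35, adjusted p = 0.00768), and with it the value was 0.19 (adjusted p = 0.248). Its paralogue Kdm2a had values of 0.27 and 0.29 and was not called.

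The KDM4 genes, erasers of H3K9 and H3K36 methylation, went in opposite directions under shRad21_2. Kdm4c was at 44.9, 44.0 and 44.4 CPM in shNT, 46.4, 45.4 and 46.0 with shRad21_1 and 37.5, 38.1 and 36 with shRad21_2. It fell by 0.26 against shNT (edgeR adjusted p = 0.0132, SE 0.07) and its log2 difference from shRad21_1 was -0.30 (adjusted p = 0.0108, SE 0.07). It was the single member that fell under shRad21_2, and both calls were lost with close libraries summed, the first also without shNT replicate 3. Kdm4b rose by 0.26 (adjusted p = 0.0376, SE 0.09), a call lost in 11 of the 19 alternatives. Kdm4a was near 0 in both comparisons (-0.01 and -0.05).

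The remaining erasers, Kdm1a, Kdm1b, Kdm3a, Kdm3b, Kdm5a, Kdm5b and Kdm5c, were not called in any of the 3 comparisons. Kdm1a (LSD1), an H3K4 demethylase, was closest, at 0.27 and 0.24 (adjusted p = 0.0899 and 0.0538), with both knockdown groups above shNT in every library. Kdm5b, an H3K4 demethylase, ran at 104, 102 and 102 CPM in shNT and at 156, 122 and 118 with shRad21_1, where replicate 1 was the highest of the 9 libraries.

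Of the 6 writers of H3K9 methylation, 3 rose under shRad21_2 and none fell (50% higher, against 21.1% of all genes). Under shRad21_1, 0 were called by edgeR or by DESeq2's Wald test, with 1 at an unadjusted p under 0.05. Ehmt1 (GLP), partner of the H3K9 enzyme EHMT2, was at 111, 96.7 and 101 CPM in shNT and 148, 130 and 123 with shRad21_2 (0.38, edgeR adjusted p = 0.00571, SE 0.09). Setdb1, which silences retroelements with TRIM28, went from 127, 114 and 115 to 144, 148 and 134 (0.26, adjusted p = 0.0174, SE 0.07). Suv39h2, a heterochromatin enzyme, had overlapping groups, with 29.1, 22.5 and 21.8 in shNT and 31.5, 28.7 and 31.6 with shRad21_2 (0.32, adjusted p = 0.0472, SE 0.12). These 3 calls were lost with close libraries summed, and those of Setdb1 and Suv39h2 also without shNT replicate 2 or 3. The Suv39h2 call was lost in 12 of the 19 alternatives in all. Suv39h1 was called only between the hairpins (0.21, adjusted p = 0.0491, SE 0.07), a call lost in 15 of the 19 alternatives. The H3K36 and H3K79 writers Nsd1, Setd2 and Dot1l were not called. Dot1l, the H3K79 methyltransferase, was at 0.35 under shRad21_2 (edgeR adjusted p = 0.0685) and 0.38 between the hairpins (adjusted p = 0.0717). It was called in both comparisons by DESeq2, with the replicate block, without shRad21_1 replicate 1, and without shRad21_2 replicate 3 (0.50 and 0.53, adjusted p = 0.0084 and 0.0148). Replicate 2 of shRad21_2 was the highest of the 9 libraries for Nsd1 (176, 233 and 135 CPM in shRad21_2) and Setd2 (132, 162 and 118). This was not particular to them. Among related genes that are not members, Kmt2a (114, 204 and 60.1), Kmt2c (69.7, 127 and 44.9) and Ash1l (99.1, 139 and 66.6) also had replicate 2 highest and replicate 3 lowest. Others, such as Wdr5 (115, 124 and 134), did not.

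**Figure D4:**
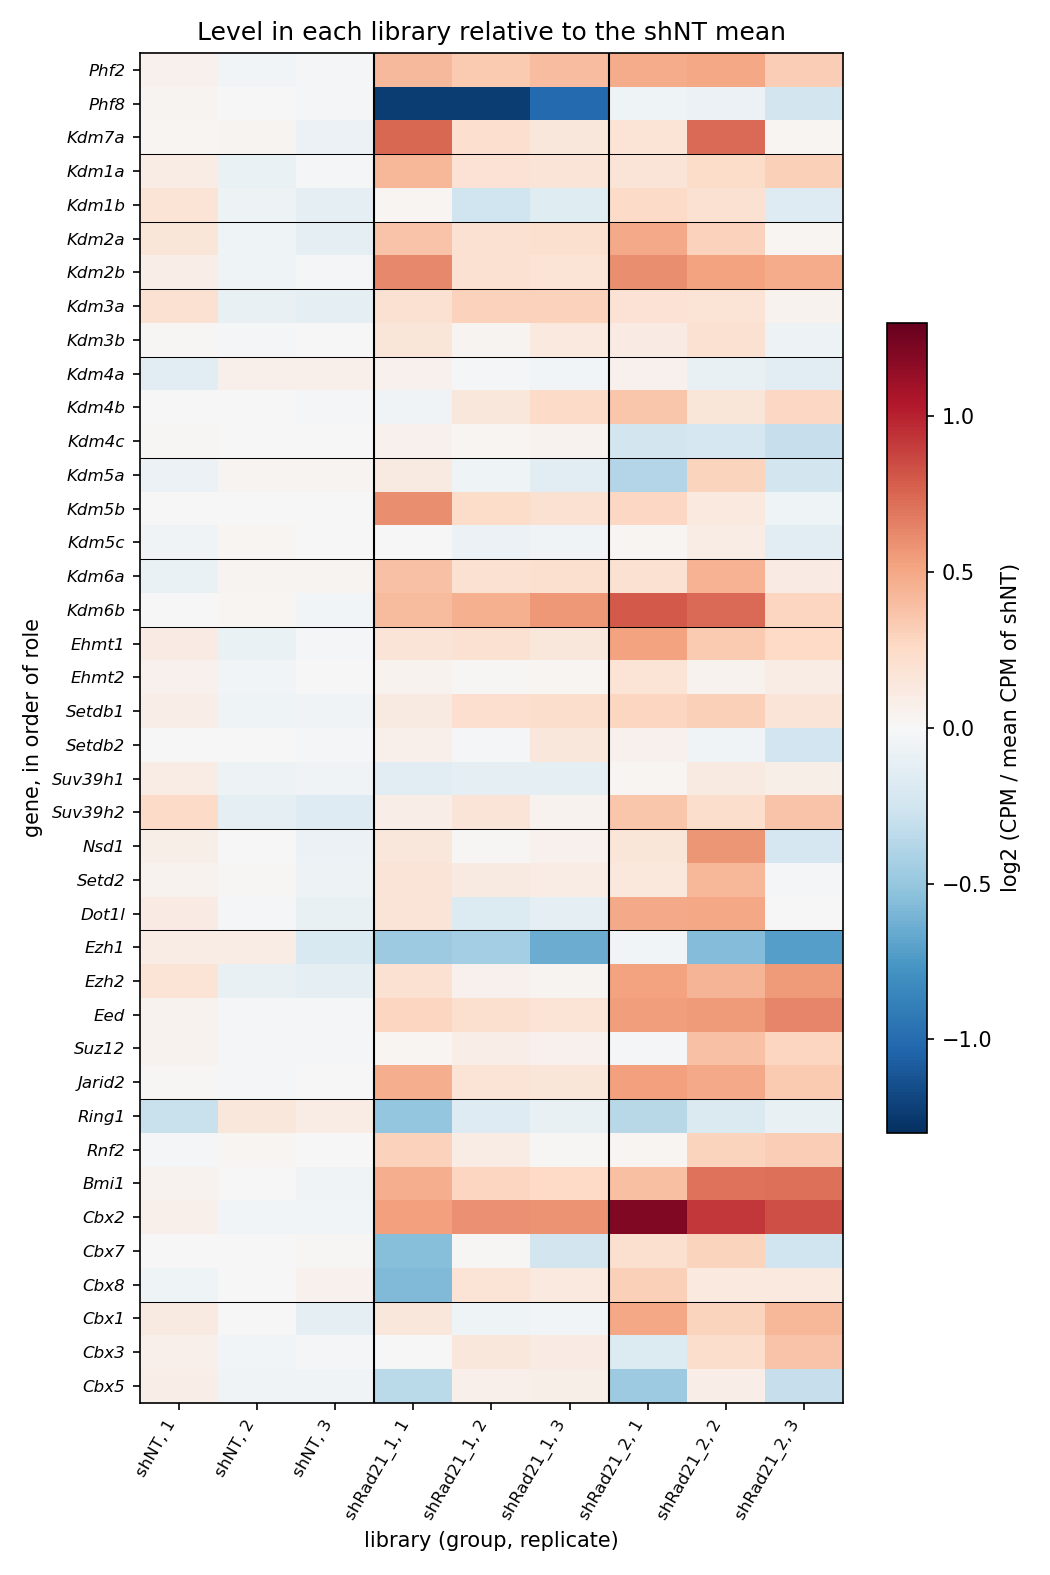
Log2 of each library's CPM over the mean CPM of shNT for the 40 tested members, with lines between groups and roles. Phf8 is between -1.23 and -1.01 in the shRad21_1 libraries, Cbx2 reaches 0.84 to 1.20 with shRad21_2, and replicate 1 of shRad21_1 has 13 members above 0.25 against 5 in each of replicates 2 and 3.

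Within PRC2, the core subunit genes Ezh2 and Eed and the cofactor gene Jarid2 rose under shRad21_2. Under shRad21_1, 0 of the 5 genes were called by edgeR, with 3 at an unadjusted p under 0.05, and 1 by DESeq2's Wald test (Eed). Ezh2, the H3K27 methyltransferase, was at 173, 143 and 141 CPM in shNT, 176, 159 and 157 with shRad21_1 and 220, 207 and 224 with shRad21_2 (217 ± 8.68, n = 3). All shRad21_2 libraries exceeded the other 6. It rose by 0.51 (edgeR adjusted p = 0.00177, SE 0.09), and by 0.40 over shRad21_1 (adjusted p = 0.0111, SE 0.09). Eed, which binds the methylated tail, was at 45.5, 43.4 and 43.2 CPM in shNT, 53.4, 50.9 and 49.8 with shRad21_1 and 63.8, 64.5 and 68.0 with shRad21_2. The 3 groups were fully separated, in the reverse order of their Rad21 levels. The share of all genes separated in this way was not counted. Genes outside the members, such as Wiz, Smyd2, Riox1 and Epop, were separated in the same order. Eed rose by 0.57 under shRad21_2 (adjusted p = 1.80e-04, SE 0.07), and its value under shRad21_1 was 0.22 (adjusted p = 0.0727, SE 0.07). The difference between the hairpins was 0.35 (adjusted p = 0.00616, SE 0.07). With close libraries summed, the calls of Ezh2 and Eed between the hairpins were lost (adjusted p = 0.0801 and 0.0733), and those against shNT were kept.

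Jarid2, which helps recruit PRC2, was at 73.3, 70.7 and 72.3 CPM in shNT and 104, 101 and 91.5 with shRad21_2 (0.45, edgeR adjusted p = 0.00349, SE 0.09). With shRad21_1 it was at 99.9, 81.9 and 80.6, replicate 1 standing in the range of shRad21_2. Suz12, the third core subunit, was not called (142, 135 and 135 in shNT, 135, 178 and 166 with shRad21_2; 0.22, adjusted p = 0.0900, SE 0.10). The alternative enzyme Ezh1, which is typical of non-dividing cells, was at 10.7, 10.7 and 8.69 in shNT, 7.23, 7.36 and 6.41 with shRad21_1 and 9.70, 6.77 and 6.05 with shRad21_2, and was not called (-0.52 and -0.41, adjusted p = 0.104 and 0.0918, SE 0.18 each). Per length, Ezh1 stood at 0.0553, 0.0669 and 0.0551 of Ezh2 in shNT, 0.0368, 0.0416 and 0.0367 with shRad21_1 and 0.0396, 0.0293 and 0.0242 with shRad21_2. Every knockdown library was under every control in this ratio, which was chosen after the values were seen.

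Some proliferation genes were also called in these comparisons. The summed level of 16 such genes was 4620, 3780 and 3800 CPM in shNT, 3710, 3840 and 3840 with shRad21_1 and 4650, 4820 and 4700 with shRad21_2. By edgeR, 5 of the 16 rose under shRad21_2 (31.2%, against 21.1% of all genes) and 11 were not called. Between the hairpins, 8 were higher with shRad21_2 (50%, against 11.9% of all genes) and 0 were lower. There all 16 had a log2 fold change above 0, with a median of 0.37, against 49.8% of all genes. The 2 hairpin groups did not overlap for 12 of the 16, against 39.2% of all genes. Under shRad21_1, 0 were called, with 0 at an unadjusted p under 0.05. The shNT library with the highest sum, replicate 1, was also the shNT library with the highest Ezh2. In that library the sum was 4620 CPM and Ezh2 was at 173, against 4650 to 4820 and 207 to 224 with shRad21_2. These are values of 1 control library, and a relation of Ezh2 to the sum was not tested. Of the 10 astrocyte markers, 0 were called under shRad21_1, with 2 at an unadjusted p under 0.05. The part of these genes, or of the astrocyte, oligodendrocyte lineage and neuron markers given above, in the members' results was not tested.

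Within PRC1, Cbx2 and Bmi1 rose. Cbx2, a chromobox subunit that reads H3K27 methylation, is ENSMUSG00000025577.7 on chromosome 11 from 119022962 to 119031270. It was at 25.2, 23.3 and 23.4 CPM in shNT (24.0 ± 1.06, n = 3), 34.7, 36.2 and 36 with shRad21_1 (35.6 ± 0.795, n = 3) and 55.2, 45.5 and 43.1 with shRad21_2 (47.9 ± 6.44, n = 3). The groups were fully separated in the reverse order of Rad21, as for Eed and with the same limit, and replicate 1 of shRad21_1 did not stand apart. Cbx2 rose by 0.57 under shRad21_1 (edgeR adjusted p = 0.00846, SE 0.10) and by 1.00 under shRad21_2 (adjusted p = 6.33e-05, SE 0.10), the largest rise of any member. The hairpins differed by 0.43 (adjusted p = 0.0131, SE 0.10). With close libraries summed, the call under shRad21_2 was kept, and those under shRad21_1 (0.55, adjusted p = 0.126) and between the hairpins (0.43, adjusted p = 0.0796) were lost.

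Bmi1, a ring finger partner of RNF2 known for self-renewal of neural stem cells, was at 192, 184 and 179 CPM in shNT, 257, 224 and 222 with shRad21_1 and 243, 302 and 305 with shRad21_2. Every knockdown library exceeded every control, and the hairpin groups overlapped. It rose by 0.62 under shRad21_2 (edgeR adjusted p = 0.00102, SE 0.10), and its value under shRad21_1 was 0.34 (adjusted p = 0.0594, SE 0.10). Between the hairpins the value was 0.27 (adjusted p = 0.0694). That difference was called without shRad21_1 replicate 1 (0.35, adjusted p = 0.0258) or shRad21_2 replicate 1 (0.38, adjusted p = 0.0143).

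The E3 ligase genes Ring1 (-0.24 and -0.21) and Rnf2 (0.15 and 0.21) and the chromobox genes Cbx7 (-0.24 and 0.10) and Cbx8 (-0.04 and 0.20) were not called in any comparison.

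**Figure D5:**
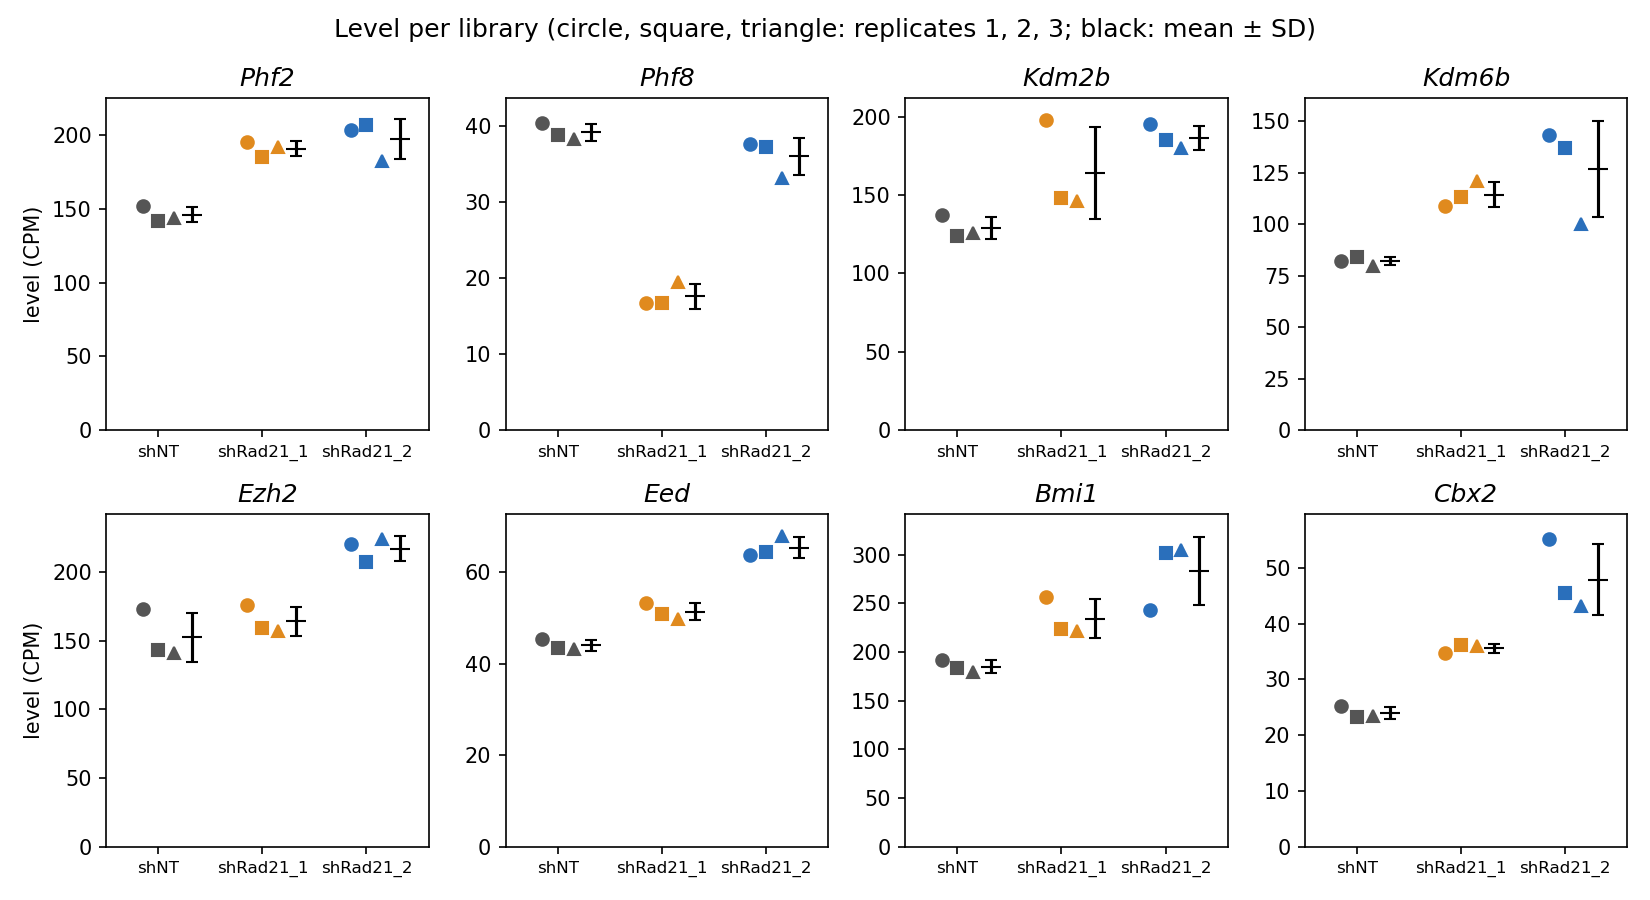
Level in CPM, from 0, of 8 members in each library, with the mean ± SD of each group in black. Cbx2 and Eed separate all 3 groups, and Phf8 is low in the shRad21_1 libraries (16.7 to 19.5 CPM).

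Of the HP1 genes, Cbx1 (HP1 beta) rose under shRad21_2, from 60.4, 55.2 and 51.3 CPM to 78.8, 67.9 and 74.8 (0.41, edgeR adjusted p = 0.00600, SE 0.09). It was at 61.5, 53.4 and 54.2 with shRad21_1, within the control range but for replicate 1, and the hairpins differed by 0.39 (adjusted p = 0.0141, SE 0.09). That last call was lost without shRad21_1 replicate 2 or 3 and with close libraries summed. Cbx3 (0.09 and 0.16) and Cbx5 (-0.06 and -0.21) were not called. Cbx5 was low in replicate 1 of both hairpin groups, at 451 and 416 CPM, against 467 to 613 in the other 7 libraries.

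Several members that were not called on all 9 libraries were called with 1 library left out. Without shRad21_2 replicate 1, calls against shNT were made for Suz12 (0.33), Rnf2 (0.30), Cbx3 (0.30) and Ezh1 (-0.64). Without shRad21_2 replicate 3 they were made for Kdm2a (0.40), Kdm6a (0.33), Nsd1 (0.38) and Setd2 (0.29), and without its replicate 2 for Kdm5a (-0.31) and Cbx5 (-0.38). Leaving out shNT replicate 1 gave calls for Kdm3a under both hairpins (0.38 and 0.25) and for Kdm1a (0.29) and Kdm2a (0.38) under shRad21_2. Leaving out shRad21_1 replicate 1 gave calls for Kdm1a (0.24) and Kdm6a (0.27) under shRad21_2. Under shRad21_1, Bmi1 (0.34) and Ezh1 (-0.52) were called without shRad21_2 replicate 1. Between the hairpins, Suz12 (0.27) was called without shRad21_2 replicate 1, Kdm6b (0.29) without its replicate 3, and Jarid2 (0.28) without shRad21_1 replicate 1.

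Of 71 further genes of histone methylation and Polycomb, 7 were called under shRad21_1 (9.86%, 6 higher and 1 lower), 30 under shRad21_2 (42.3%, 27 higher and 3 lower) and 21 between the hairpins (29.6%, 17 higher and 4 lower). These shares are near those of all genes given above, and the direction was again mostly upward, with a median of 0.22 under shRad21_2. The PRC2 cofactor gene Epop had the largest change of the 3 that the naming rule takes from the PRC2 list, at 11.3, 8.45 and 8.16 CPM in shNT, 20.0, 19 and 20.5 with shRad21_1 and 31.5, 30.0 and 35.5 with shRad21_2. It rose by 1.09 (edgeR adjusted p = 0.00156, SE 0.13) and 1.80 (adjusted p = 1.14e-05, SE 0.13), and both calls held under all 19 alternatives. Aebp2, another PRC2 cofactor, rose by 0.59 under shRad21_2, and Phf19, which binds methylated H3K36, fell by 0.58.

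Other PRC1 genes were called in 11 of 20 cases under shRad21_2 (55%, against 43.6% of all genes), 10 higher (50%, against 21.1%) and 1 lower. Sfmbt1 rose by 0.75 and the polyhomeotic gene Phc2 by 0.47, and Cbx6 fell by 0.57 (edgeR adjusted p = 9.04e-04). Of 16 H3K4 methyltransferase and COMPASS genes 7 rose (43.8%, against 21.1% of all genes), among them Wdr5 (0.59), Setd1a (0.61) and Setd7 (0.53). Kmt2a and Kmt2d, which encode long H3K4 methyltransferases, were not called. Kmt2d stood at 109, 219 and 55.9 CPM in the shRad21_2 libraries, with the highest and the lowest of all 9 values in the same group. The same held for Kmt2a, Kmt2c and Ash1l.

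Kmt5a, which writes the H4K20 mark that PHF8 removes, was at 193, 162 and 169 CPM in shNT, 216, 199 and 191 with shRad21_1 and 367, 323 and 349 with shRad21_2. It rose by 0.99 under shRad21_2 (edgeR adjusted p = 3.38e-05, SE 0.09) and was at 0.21 under shRad21_1 (adjusted p = 0.164, SE 0.09). The hairpins differed by 0.78 (adjusted p = 3.56e-04, SE 0.09). Riox1, a JmjC oxygenase, rose by 0.56 and 0.92, and the methyltransferase gene Smyd2 by 0.29 and 0.54. The Smyd2 call under shRad21_1 was lost without any single shNT library, without shRad21_1 replicate 2 or 3, and with close libraries summed (adjusted p up to 0.249). With close libraries summed, the calls of Riox1 and Cdyl under shRad21_1 were lost as well (adjusted p = 0.0997 and 0.0920), and that of Trim28 under shRad21_2 (adjusted p = 0.0512). In the H3K9 silencing list, Cdyl rose by 0.50 and 0.52, and Wiz (0.46) and Trim28 (0.36) rose under shRad21_2. Of 10 other demethylase genes, Kdm5d fell by 0.40 under shRad21_2 and Jmjd1c was not called (0.31, adjusted p = 0.109).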

How the data were processed

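The authors deposited counts per gene symbol for 9 libraries, as whole numbers that are not normalised. Per the submitters' processing notes, FastQC, cutadapt, Trim Galore, Bowtie2 and RSEM were used with mm10. No version, annotation, strand setting or rounding step is given in the sources used here. Exons on the other strand overlap Kdm2b (Rnf34, A930024E05Rik), Kdm1b (Dek), Setdb1 (Cers2), Cbx7 (Apobec3) and other members, so reads of such pairs may be mixed. Reads of near-identical copies, such as processed pseudogenes, could also have been split.

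Genes were tested with edgeR 4.0.16 (quasi-likelihood, TMM, filterByExpr by group) in R 4.3.3, with all 9 libraries in a single fit of 3 group means. Two-sided p-values were adjusted over all 13560 genes tested (Benjamini-Hochberg), with calls at under 0.05. A count of 3 corresponds to 0.0664 to 0.0880 CPM, which covers counting error only. Named are Rad21, all members (with a value per library where called at an absolute log2 fold change of at least 0.5, for Phf2 and for their relatives) and, of each list of other genes, the 3 with the smallest p under shRad21_2. Kmt2a, Kmt2c, Kmt2d, Ash1l and the other called members were given values after these were seen. Members and lists were chosen with earlier results of these data known. Alternatives were DESeq2 1.42.0 (size factors, Wald test), library totals, limma-voom (limma 3.58.1), other filters, a fold threshold, fits of 2 groups, a replicate block and each library left out. The CTCF core was searched on both strands.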

Additional observations from a re-analysis of the deposited data

How the results depend on the processing

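Under shRad21_1, the 3 higher members became 7 with the DESeq2 Wald test, 5 with a fit of the 2 groups alone, and 0 with close libraries summed or a log2 fold threshold of 1. With single libraries left out they ran from 1 (without shNT replicate 2 or 3) to 4. The 1 lower member became 2 with the 2 groups alone, and 1 to 2 with single libraries left out (2 without shRad21_2 replicate 1). The 7 other genes became 2 with the fold threshold and 1 with close libraries summed, and 3 to 8 with single libraries left out (3 without shNT replicate 2 or 3, 4 without shRad21_1 replicate 3). Under shRad21_2, the 13 higher members became 1 with the fold threshold, and were 9 with close libraries summed and 10 to 16 with single libraries left out. The 1 lower member became 0 with the fold threshold or close libraries summed, and 0 (without shNT replicate 3) to 3 (without shRad21_2 replicate 2), with 2 without shRad21_2 replicate 1. The 30 other genes became 1 with the fold threshold. Between the hairpins, 6 higher members became 1 and 1 lower became 0 with the fold threshold, and 1 and 0 with close libraries summed; the 21 other genes became 1, 4 with close libraries summed, 12 with the 2 groups alone, and 10 or 11 without shRad21_1 replicate 2 or 3. The highest leave-one-out count there was 22. Summing close libraries was chosen after seeing the data and leaves fewer libraries. Other causes were not tested.

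Under the replicate block the members that rose under shRad21_1 numbered 5, and those that fell under shRad21_2 numbered 2. Kdm2b and Kdm5b under shRad21_1, Kdm2a and Ezh1 under shRad21_2, and Dot1l under shRad21_2 and between the hairpins gained a call under the block, and Kdm4b under shRad21_2 and Suv39h1 between the hairpins lost theirs. Correlations of deviations do not settle whether replicate numbers pair the samples. The 9 same-numbered pairs ran from 0 to 0.29, with 4 over 0.1, and 10 of 18 combinations of a library and another group were highest for the same number. Between shNT and shRad21_1 the same-numbered pairs were at 0.29, 0.17 and 0.18. There shNT replicate 2 with shRad21_1 replicate 3 was at 0.22, and shNT replicate 1 with shRad21_1 replicates 2 and 3 at -0.25 and -0.26. Among Rad21, the members and the further genes taken by the naming rule, no direction of a called gene reversed. The cell type and proliferation markers were not put through the alternatives.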
